A study of Homo sapiens with 30 samples.

Results

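The question was which genes responded differently to 24 h of activation in Jurkat cells that lack isoform 1 of SLAMF6 than in unedited Jurkat cells. Each gene's interaction was taken as its log2 change from 0 h to 24 h in the edited cells (KO) minus that in the unedited cells (WT). It compared 12 of the study's 30 libraries by their titles, 3 in each of 4 groups: WT at 0 h, WT at 24 h, KO at 0 h and KO at 24 h. All 30 libraries were fitted in 1 model, so the filter and the spread behind each p-value drew on all of them. All 21554 gene symbols that passed a filter on low counts were tested, and 794 of them (3.68%) were called at an adjusted p under 0.05. A fit of the 12 libraries alone called 508 genes, 449 of them among the 794.

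The cells of all groups were Jurkat E6-1, a CD4+ T cell leukaemia line that is widely used to study T cell activation. Those at 0 h were not stimulated. At 24 h they had been exposed to PMA, a phorbol ester that activates protein kinase C, and ionomycin, an ionophore that raises calcium, which together bypass the T cell receptor. The edited cells are described as a SLAMF6 isoform 1 knockout in the design text, whereas the title names overexpression of isoform 3. The protocol's name for them is SLAMF6Δ17-65. Nothing in the labels says how many edited lines were used or whether the 3 libraries of a group were separate cultures. The spread behind each p-value is that between libraries of a group, over all 10 groups, and may be technical. The time points carry no unit, and hours were taken from the protocol, which was written for a cytokine assay of 48 h and gives PMA at 200 and ionomycin at 300 ng/ml. In the titles the libraries of 0 h and 24 h bear the letter A in WT and B in KO, so this letter and the genotype cannot be told apart.

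T cell activation couples new transcription to metabolic change. Calcium and protein kinase C signals switch on NFAT, AP-1 and NF-kB, and their targets include cytokines, surface receptors and the feedback inhibitors that end the signal. Growing and secreting cells also run glycolysis, the SREBP programme of sterol synthesis and the chaperones of the endoplasmic reticulum, which the unfolded protein response (UPR) sets. SLAMF6 is a self-binding receptor of the SLAM family on T cells, whose tail recruits the adaptor SAP and the phosphatase SHP-1.

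Total counts of the 12 libraries ran from 5.64 to 28.2 M, and the shallowest were replicate 2 of each genotype at 0 h. Levels below are counts per M after TMM scaling (CPM), which can be compared between libraries for 1 gene but not between genes, because they are not per length. Replicate 12 stood apart from its group at 24 h in both genotypes. Its SD from the mean of its 2 mates over 9697 genes, on the log2 scale, was 0.412 in WT and 0.358 in KO, against 0.222 to 0.301 in the other 10 libraries. Markers of the T lineage summed to between 5110 and 9830 CPM in every library, and all 14 were detected in each group. The 12 markers of monocytes and macrophages summed to 144 to 172 CPM in WT at 0 h and 64.5 to 137 CPM elsewhere. The B cell list gave 44.4 to 69.2 CPM, epithelial and fibroblast markers at most 8.5 CPM, and erythroid and megakaryocyte markers at most 3.46 CPM. In the interaction, no tested member of these 4 lists for other cell types was called by edgeR, 5 of 24 reached an unadjusted p under 0.05, and DESeq2 called 1.

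SLAMF6, the edited gene (chromosome 1, 160485030 to 160523262, minus strand, in GENCODE 29 on GRCh38), stood at 19, 25.1 and 19.4 CPM in WT at 0 h, 65.2, 73.9 and 97.4 CPM in WT at 24 h, 18.2, 21 and 18.6 CPM in KO at 0 h, and 109.7, 113 and 147 CPM in KO at 24 h. The genotypes overlapped at rest, and at 24 h every KO library was above every WT library. The counts are per gene symbol and do not separate isoforms, so they do not check the edit. SLAMF6 rose in both genotypes, and the interaction was 0.77 ± 0.19 (SE, adjusted p = 0.015). That call ended in a fit of the 12 libraries alone, without WT replicate 10 of 24 h and without KO replicate 12, with an adjusted p of at most 0.0712.

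Of the 794 called genes, 410 had a higher interaction (1.9% of genes tested) and 384 a lower one (1.78%), and 3416 genes reached an unadjusted p under 0.05. A change of at least 2-fold in the interaction was seen for 239 of the higher and 122 of the lower genes. At least 10 CPM in 1 or more groups was reached by 311 and 350 of them, and by 9697 of all genes tested. The share called was thus larger at that level than the 3.68% over all genes tested, which stands beside the lists below. The median size among called genes was 0.919 on the log2 scale and the smallest was 0.436. In bulk libraries, fewer cells expressing a gene and less RNA per cell cannot be told apart. The number of calls fell to 504 without WT replicate 1 of 0 h, 484 without KO replicate 1 of 0 h, 507 without KO replicate 3 of 0 h and 478 without KO replicate 12 of 24 h. It rose to 1180 without WT replicate 12 of 24 h, where the higher calls rose from 410 to 682. The lower calls fell from 384 to between 181 and 252 without WT replicate 1 or 2 of 0 h, KO replicate 1 or 3 of 0 h, WT replicate 10 or 11 of 24 h or KO replicate 12 of 24 h. No gene that was called here was called with the opposite sign in any of the 19 other analyses.

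The same interaction arose in several ways, which the plot of the change in each genotype shows. In WT, 3715 genes rose from 0 h to 24 h (17.2%) and 3657 fell (17%). In KO, 3479 rose (16.1%) and 3584 fell (16.6%). Of the 410 genes with a higher interaction, 127 rose in both genotypes and more in KO, 124 rose only in KO by these calls, 91 fell in WT and were not called in KO, and 39 fell in both. The remaining 29 fell in WT and rose in KO. Of the 384 with a lower interaction, 98 fell in both, 87 were called to fall in KO and not called in WT, 117 rose in WT and were not called in KO, 66 rose in both, and 16 rose in WT and fell in KO.

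**Figure D1:**
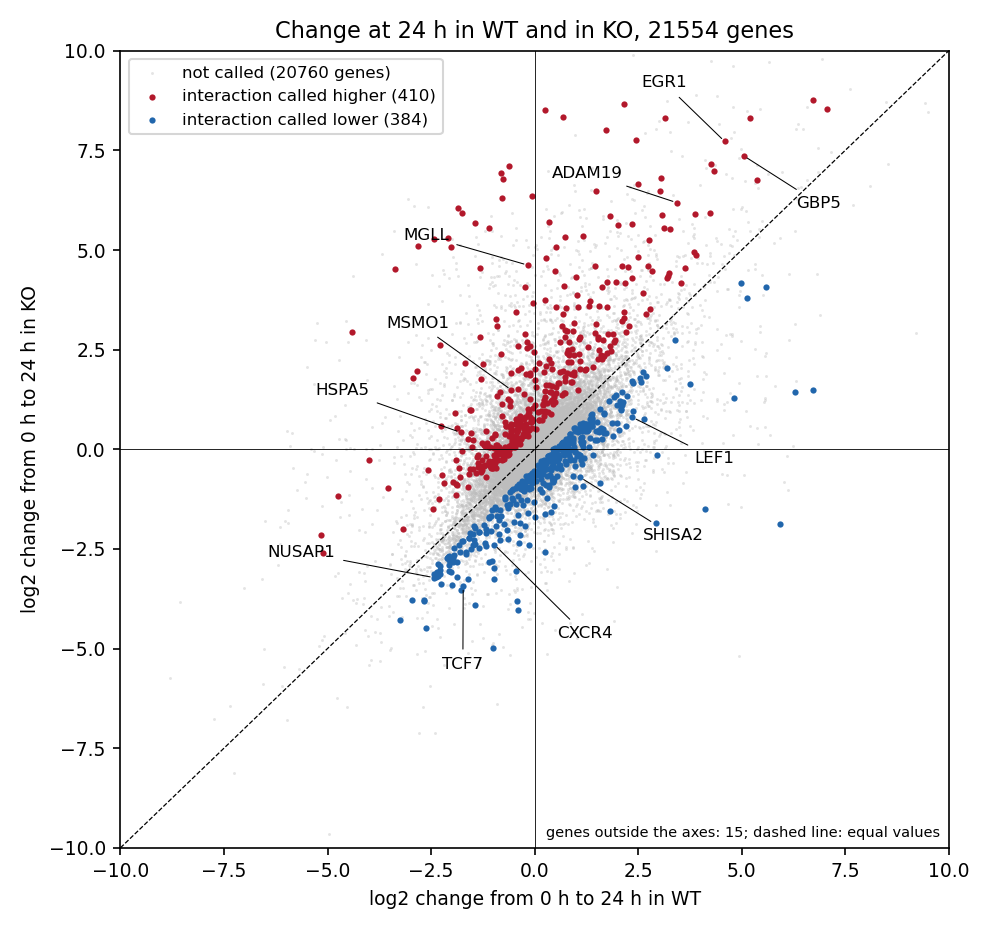
Log2 change from 0 h to 24 h in WT (x axis) and in KO (y axis) for each of 21554 genes, from the fit of all libraries. Red and blue points are the 410 and 384 genes called higher and lower in the interaction, grey points are not called, and the dashed line marks equal change; HSPA5 and MSMO1 lie left of 0 in WT and above 0 in KO, while LEF1 rose in WT by far more than in KO.

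Part of the difference was a gap at rest that closed or turned. At 0 h, 641 genes were higher in KO than in WT (2.97%) and 668 were lower (3.1%). By 24 h these were 1048 (4.86%) and 1010 (4.69%). Among the 410 genes with a higher interaction, 116 were called lower in KO at 0 h and not called at 24 h, 52 were lower at 0 h and higher at 24 h, and 181 were called only at 24 h, as higher. Among the 384 with a lower interaction, 111 were called higher in KO at 0 h and not at 24 h, 19 crossed from higher to lower, and 196 were called only at 24 h, as lower. The groups at 0 h enter both the genotype difference at rest and the interaction, so these shares are a description.

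**Figure D2:**
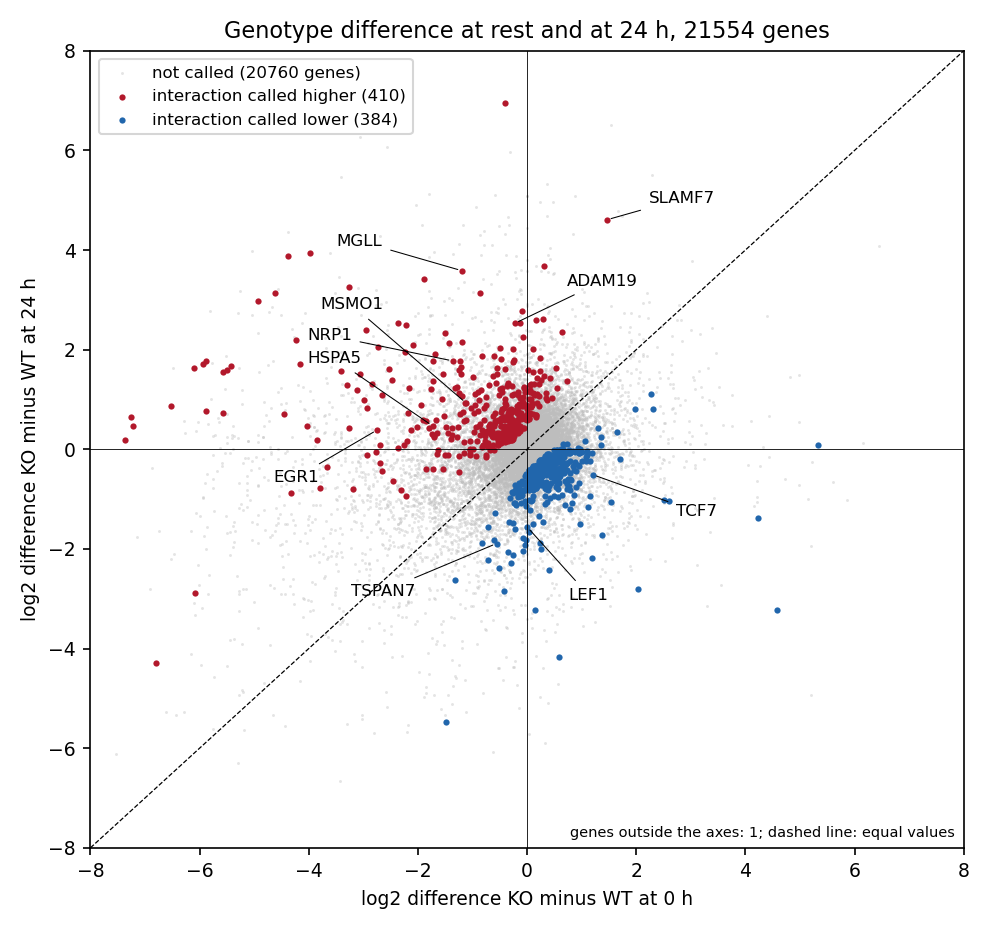
Log2 difference of KO minus WT at 0 h (x axis) and at 24 h (y axis) for each of 21554 genes, with called genes coloured as in the plot of the change in each genotype. The interaction is the height above or below the dashed line; HSPA5, MSMO1 and EGR1 lie left of 0, SLAMF7 is higher in KO at both times, and ADAM19 and LEF1 differ at 24 h while lying near 0 at rest.

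Chaperones of the endoplasmic reticulum were lower in KO at rest and level with WT or above it at 24 h, and HSPA5 had the smallest p of all genes tested. Of 28 tested members of the UPR list, 13 had a higher interaction and none a lower one, which is 46.4% of the list against 3.68% of all genes. The list's median interaction was 0.652, against 0.00264 over all genes. At 0 h 14 members were lower in KO and none was higher, while at 24 h 8 were higher and none lower. In WT 14 fell and 6 rose, and in KO 2 fell and 14 rose. Without any 1 library, 13 or 14 members were called.

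HSPA5 encodes BiP, the main HSP70 chaperone of the endoplasmic reticulum lumen and the classical UPR target. It lies on chromosome 9, 125234853 to 125241330, minus strand. HSPA5 stood at 2320.0, 2089 and 2332 CPM in WT at 0 h, 605, 643 and 714 CPM in WT at 24 h, 725, 603 and 699 CPM in KO at 0 h, and 841, 825 and 1052 CPM in KO at 24 h. WT at rest was above the other 3 groups with no overlap, and at 24 h every KO library was above every WT library. HSPA5 fell in WT by 1.78 and rose in KO by 0.42 on the log2 scale, which gave an interaction of 2.20 ± 0.15 (SE, adjusted p = 1.5e-12).

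HERPUD1, HSP90B1, MANF and SDF2L1 showed the same resting gap. HERPUD1, which acts in the removal of misfolded proteins, stood at 180.0, 178 and 186 CPM in WT at 0 h, 65.5, 63.6 and 62.3 CPM in WT at 24 h, 59.8, 53.2 and 59 CPM in KO at 0 h, and 56.8, 56.6 and 66.1 CPM in KO at 24 h. Its interaction was 1.56 ± 0.14 (SE, adjusted p = 3.2e-09), as WT fell to the level of KO, which was not called to change. For HSP90B1, which encodes the lumenal chaperone GRP94, the means went from 1119.6 ± 37.3 to 574 ± 53.1 CPM in WT and from 501 ± 23.1 to 638 ± 47 CPM in KO (SD, n = 3), with an interaction of 1.31 ± 0.13 (SE, adjusted p = 5.2e-09). MANF, a secreted UPR protein, and SDF2L1, a co-chaperone of BiP, had interactions of 1.71 ± 0.17 (SE, adjusted p = 6.9e-09) and 1.59 ± 0.16 (SE, adjusted p = 8.3e-09). SDF2L1 fell in both genotypes, by 2.24 in WT and 0.66 in KO on the log2 scale.

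The protein disulfide isomerases PDIA6, PDIA4 and PDIA3, the co-chaperones DNAJC3 and DNAJB11, calnexin (CANX), CRELD1 and the UPR transcription factor XBP1 were called too. Their interactions lay between 0.63 for CANX and 1.22 for PDIA6. XBP1 went from 112 to 75.2 CPM in WT and from 54.1 to 84.5 CPM in KO. The sensors ERN1, ATF6 and EIF2AK3 and the lumenal calcium binder CALR were not called.

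The promoters of UPR members were searched for the endoplasmic reticulum stress element (ERSE: CCAAT, 9 bases of any kind, CCACG, on either strand) in the 250 bases before the first start that RefSeq lists for each gene on GRCh38.p14. It was found in 22 of 27305 promoters (0.0806%), and in 6 of the 25 UPR members that have an entry. Of these 6, HSPA5, HSP90B1, XBP1 and CANX were called in the interaction and CALR and CRELD2 were not. The sites of the 4 called genes are shown, with the element in capitals on the gene's strand or its reverse complement. CRELD2 and CALR, whose sites are not shown, had interactions of 0.95 and 0.16, against 0.63 for CANX. HSPA5 is the site at chr9:125241383-125241417 (minus strand), XBP1 at chr22:28800595-28800629 (minus strand) and CANX at chr5:179698770-179698804 (plus strand). The HSP90B1 promoter holds a distal site at chr12:103930208-103930242 and a proximal one at chr12:103930313-103930347 (both plus strand).
HSPA5: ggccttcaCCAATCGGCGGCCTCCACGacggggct
XBP1: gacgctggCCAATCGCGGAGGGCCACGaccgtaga
CANX: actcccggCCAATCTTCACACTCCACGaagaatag
HSP90B1, distal: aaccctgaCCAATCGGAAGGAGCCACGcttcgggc
HSP90B1, proximal: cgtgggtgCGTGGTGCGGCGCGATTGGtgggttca
The HSPA5, XBP1 and CANX sites and the distal HSP90B1 site read CCAAT first, and the proximal HSP90B1 site is in the reverse orientation. The whole 250-base window of HSPA5, chr9:125241344-125241593 on the minus strand, read 5′ to 3′ towards the start, holds this 1 exact match.
HSPA5 window: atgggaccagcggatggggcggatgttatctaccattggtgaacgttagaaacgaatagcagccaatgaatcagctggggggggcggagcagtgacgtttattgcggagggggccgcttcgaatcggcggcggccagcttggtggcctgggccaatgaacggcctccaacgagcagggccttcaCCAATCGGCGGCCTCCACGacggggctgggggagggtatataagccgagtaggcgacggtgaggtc
Other motifs were searched in the same way. UPRE (TGACGTG) was in 1.71% of promoters and in 1 of the 25 UPR members, HYOU1. The motif CARE was in 3.18% of promoters and in 2 of 18 amino acid stress genes with an entry, ASNS and CHAC1. AP-1 was in 6.6% of promoters and in 1 of 12 T cell cytokines with an entry, EBI3. HYOU1, ASNS, CHAC1 and EBI3 were not called. A match is a description of the letters and not evidence of binding. No binding data were used here.

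Sterol synthesis was the list with the largest share of called genes. Of 26 tested members of cholesterol biosynthesis and uptake, 18 (69.2%) had a higher interaction and none a lower one, with a list median of 0.963. In WT 19 members fell and 1 rose, whereas in KO 15 rose and 5 fell. At 0 h 15 were lower in KO and 1 was higher, and at 24 h 17 were higher and 1 was lower. The count ranged from 15 to 19 when any 1 library was left out.

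MSMO1, which removes methyl groups from the sterol ring (chromosome 4, 165327623 to 165343160, plus strand), stood at 309, 351 and 274 CPM in WT at 0 h, 178, 185 and 270.1 CPM in WT at 24 h, 132, 154 and 145 CPM in KO at 0 h, and 381, 404 and 419 CPM in KO at 24 h. KO lay below WT at rest and above it at 24 h, in each case without overlap. The interaction was 2.04 ± 0.19 (SE, adjusted p = 6.9e-09). DHCR7, which makes cholesterol in the last reduction of the pathway, stood at 420.3, 452 and 464 CPM in WT at 0 h, 221, 263 and 297 CPM in WT at 24 h, 268, 257 and 247 CPM in KO at 0 h, and 419, 367 and 598 CPM in KO at 24 h, with an interaction of 1.62 ± 0.18 (SE, adjusted p = 5.1e-08). Its KO libraries at 24 h were the most spread, and replicate 12 was the highest of them. Without that library the interaction was 1.42.

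MVD and IDI1, which act in the mevalonate branch, had interactions of 1.29 ± 0.15 (SE, adjusted p = 1.3e-07) and 1.39 ± 0.16 (SE, adjusted p = 2.5e-07). HMGCS1, which makes HMG-CoA, went from 269.6 to 247 CPM in WT and from 156 to 374 CPM in KO, with an interaction of 1.38 ± 0.16 (SE, adjusted p = 3.7e-07). SQLE, the squalene epoxidase, had an interaction of 0.97. INSIG1, which holds the SREBP complex in the endoplasmic reticulum, fell in both genotypes and less in KO, by 1.55 in WT and 0.48 in KO on the log2 scale. The transcription factors SREBF1 and SREBF2 and the enzymes LSS, EBP and CYP51A1 were among the 8 members not called. At 36 h 4 members were called higher in KO than in WT and 2 lower. The sterol regulatory element, searched by name as a 9-base motif with 1 free base, was found in 0.875% of promoters and in 1 of 19 list members with an entry, SREBF2, which was not called.

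**Figure D3:**
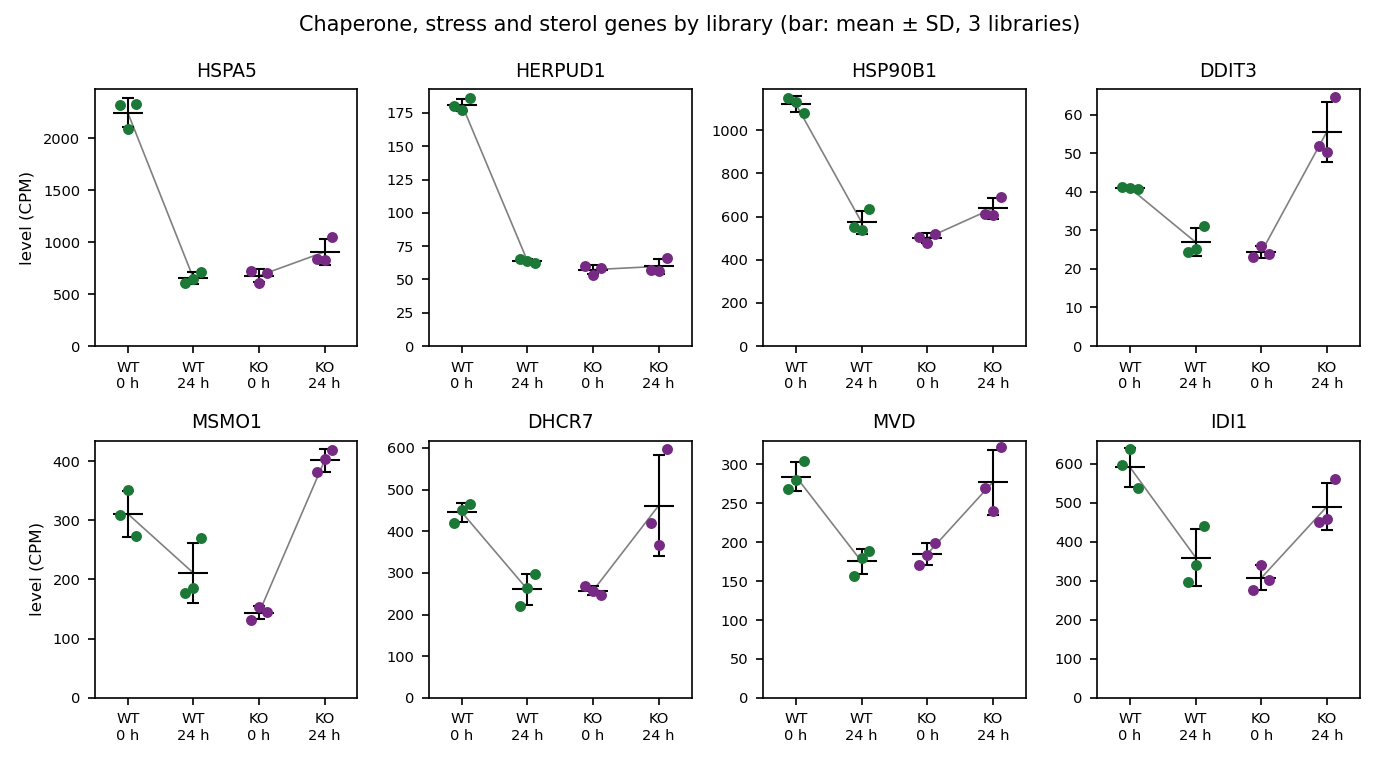
Levels of 8 chaperone, stress and sterol genes in each library (points, CPM), with the mean and SD of 3 libraries as bars and a line joining 0 h and 24 h within a genotype; each axis starts at 0. HSPA5 and HERPUD1 drop in WT to about the level of KO at rest, and MSMO1, DHCR7 and MVD drop in WT and climb in KO.

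Glycolysis followed with 10 of 26 members higher (38.5%) and none lower, at a list median of 0.447. In WT 12 members fell and 4 rose, and in KO 8 fell and 6 rose. KO was lower at 0 h for 8 members and higher for 1. ENO1, which encodes enolase, stood at 4189, 3277 and 4313 CPM in WT at 0 h, 1559.5, 1591 and 2129 CPM in WT at 24 h, 2192, 1563 and 2239.7 CPM in KO at 0 h, and 1949.8, 1914 and 2834 CPM in KO at 24 h. It fell in WT and was not called in KO, with an interaction of 1.32 ± 0.20 (SE, adjusted p = 7.4e-05). LDHA, lactate dehydrogenase A, fell in both genotypes, from 2778 ± 75.9 to 803 ± 124 CPM in WT and from 1671 ± 60.1 to 1032 ± 267 CPM in KO, with an interaction of 1.09 ± 0.17 (SE, adjusted p = 7.4e-05). PKM, the pyruvate kinase, rose in both and more in KO, with an interaction of 1.08 ± 0.15 (SE, adjusted p = 6.6e-06). ALDOA, GPI, PGK1, ALDOC, TPI1, PFKL and the glucose transporter SLC2A3 were the other called members. HK1, HK2, GAPDH and SLC2A1 were not called. Several of these genes have processed pseudogenes, and how reads shared with them were counted is not given in the sources used here. Leaving out 1 library gave 7 to 10 called members.

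Smaller metabolic lists also held higher calls. In fatty acid synthesis and desaturation 4 of 17 members had a higher interaction and none a lower one. The desaturases FADS1 and SCD fell in both genotypes and less in KO, with interactions of 0.96 ± 0.13 (SE, adjusted p = 6.9e-06) and 0.91 ± 0.15 (SE, adjusted p = 9.7e-05). ACSS2 and ACSL3, which activate acetate and long fatty acids, were the other 2 members, and ACSL3 lost its call in 9 of the 19 other analyses. The count was 2 without WT replicate 3 or KO replicate 1 of 0 h. Of the list of amino acid stress and tRNA synthetases, 5 of 34 were higher and none lower, with 3 higher without KO replicate 2 of 0 h or KO replicate 12 of 24 h. DDIT3 (CHOP), a stress transcription factor, stood at 41.3, 40.9 and 40.6 CPM in WT at 0 h, 24.5, 25.2 and 31.1 CPM in WT at 24 h, 23, 26.1 and 23.9 CPM in KO at 0 h, and 52, 50.3 and 64.6 CPM in KO at 24 h. It fell in WT and rose in KO, and the interaction was 1.81 ± 0.18 (SE, adjusted p = 9.8e-09). TRIB3, a pseudokinase induced by stress, and the synthetases WARS, EPRS and LARS were the others. WARS is also an interferon-responsive gene, and its means went from 219.6 ± 4.75 to 541 ± 116 CPM in WT and from 168 ± 7.02 to 996 ± 326 CPM in KO. Of 29 ribosome biogenesis genes 3 were called, PPAN, WDR43 and RRS1, all higher, and 10 were called without WT replicate 12 of 24 h but 1 without KO replicate 12. The count was 6 and 5 without KO replicates 10 and 11. Of 18 heat shock genes HSPA8 and TRAP1 were higher and HSP90AA1 was lower, with an interaction of -0.85 ± 0.14 (SE, adjusted p = 9.9e-05) for the last. The higher calls among them were 0 without KO replicate 2 of 0 h or KO replicate 12 of 24 h and 4 without WT replicate 12, and the lower one was called without any 1 library.

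Mitochondrially encoded transcripts had 4 of 13 members with a lower interaction and none with a higher one. MT-ND5, a subunit of complex I, went from 789 ± 21.3 to 1111 ± 99 CPM in WT and from 1247 ± 166 to 1119.6 ± 61.3 CPM in KO, with an interaction of -0.65 ± 0.15 (SE, adjusted p = 0.0069). MT-ND4, MT-ND6 and MT-ATP6 lost their calls in at least 10 of the 19 other analyses each. The list count stayed at 4 without WT replicate 11 of 24 h or KO replicate 2 of 0 h and was 3 without WT replicate 3 of 0 h. It was 0 without KO replicate 3 of 0 h and 1 or 2 without any other single library. Of 36 nuclear genes of oxidative phosphorylation only ATP5G1 was called, as higher, and it kept its call in 7 of the 19 other analyses.

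**Figure D4:**
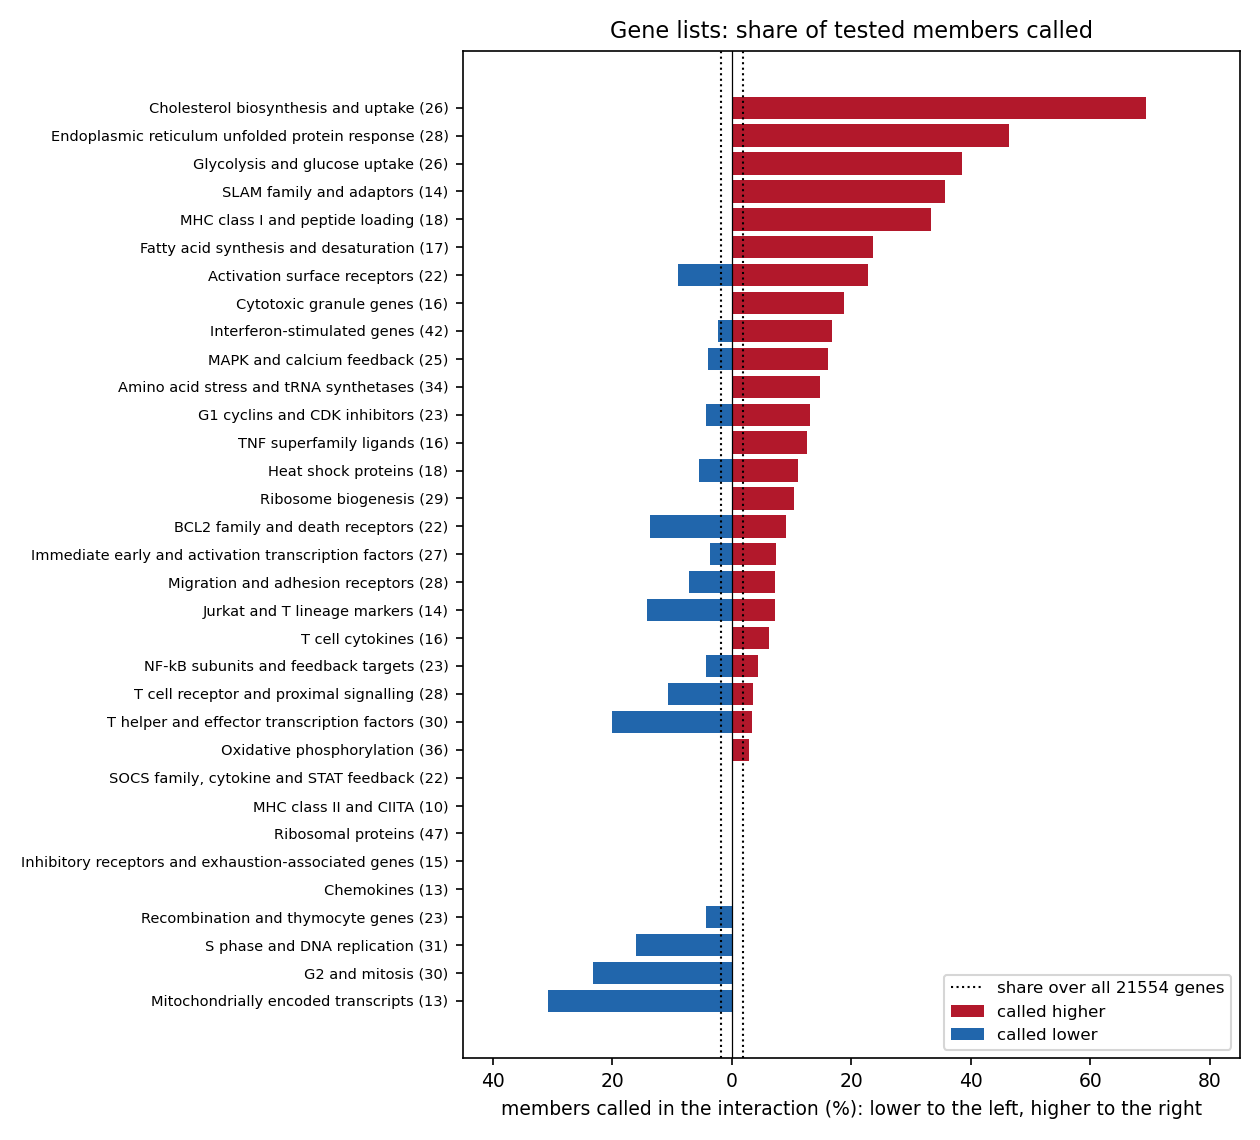
Share of the tested members of each gene list that were called higher (red, to the right) or lower (blue, to the left) in the interaction, for lists with at least 10 tested members (number in brackets); dotted lines mark the shares over all genes, 1.9% and 1.78%. Cholesterol synthesis, the UPR and glycolysis reach furthest to the right, and mitochondrial transcripts, mitosis genes and T helper transcription factors furthest to the left.

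Among immediate early and activation factors, EGR1 and FOSL1 had a higher interaction and JUN a lower one, with KO below WT at rest for the first 2 and above it for JUN. EGR1, an immediate early transcription factor (chromosome 5, 138465490 to 138469315, plus strand), stood at 8.86, 10.7 and 8.14 CPM in WT at 0 h, 229.6, 193 and 229 CPM in WT at 24 h, 1.4, 1.06 and 1.35 CPM in KO at 0 h, and 293, 328 and 231 CPM in KO at 24 h. KO was below WT at 0 h and above it at 24 h, with no overlap at either time, although the difference at 24 h was not called (adjusted p = 0.1). The interaction was 3.13 ± 0.29 (SE, adjusted p = 7e-09). CD69, an early surface marker of activated lymphocytes, stood at 26.4, 24 and 22.8 CPM in WT at 0 h, 851, 900.1 and 1286 CPM in WT at 24 h, 8.71, 8.46 and 8.53 CPM in KO at 0 h, and 859, 912 and 1026 CPM in KO at 24 h. At rest KO lay below WT, and at 24 h the libraries overlapped; the interaction was 1.39 ± 0.30 (SE, adjusted p = 0.0069). JUN, an AP-1 subunit, went the other way, from 1.86 ± 0.167 to 2.59 ± 0.0872 CPM in WT and from 6.2 ± 0.919 to 2.26 ± 0.386 CPM in KO, with an interaction of -1.91 ± 0.36 (SE, adjusted p = 0.00079). The list has 27 tested members. FOSL1, another AP-1 subunit, stood at 0.379 and 1.23 CPM in WT and 0.0125 and 1.41 CPM in KO, where the level at rest is close to no counts. FOS, JUNB, MYC, EGR2, EGR3, NR4A1 and NFATC1 were among those not called. With 1 library left out 1 to 4 members were higher and 1 was lower. EGR1 and JUN kept their calls in all of the 19 other analyses, so FOSL1 had lost its call where 1 was higher.

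Of 25 tested members of the MAP kinase and calcium feedback list 4 had a higher interaction and 1 a lower one, and 3 of the 4 (SPRED2, SPRY4 and SPRY2) were lower in KO at rest. SPRED2, an inhibitor of the RAS to RAF step, stood at 27.1, 26 and 27.9 CPM in WT at 0 h, 59.1, 56.4 and 55.1 CPM in WT at 24 h, 14.3, 13.7 and 13.4 CPM in KO at 0 h, and 93.4, 97.6 and 91 CPM in KO at 24 h. Its genotypes were separate at both times and in opposite orders, and the interaction was 1.69 ± 0.14 (SE, adjusted p = 2.2e-10). SPRY4, a Sprouty inhibitor, stood at 2.99, 3.35 and 3.85 CPM in WT at 0 h, 33, 28 and 24 CPM in WT at 24 h, 0.085, 1.41 and 0.526 CPM in KO at 0 h, and 46.5, 48.5 and 55.2 CPM in KO at 24 h, with an interaction of 3.75 ± 0.37 (SE, adjusted p = 9e-09). SPRY2 and PPP3CA, the catalytic subunit of calcineurin, had higher interactions too, and DGKA, which removes diacylglycerol, a lower one. PPP3CA was not called between genotypes at rest. The remaining 20 members, DUSP and RCAN genes among them, were not called. DGKA lost its call in 5 of the 19 other analyses, while SPRED2, SPRY4 and PPP3CA kept theirs in all. With 1 library left out 3 to 5 members of the list were higher and 0 to 1 lower, and where 3 were higher SPRY2 had lost its call.

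Of 16 tested T cell cytokines 1 was called in the interaction. IL2 had no count in WT at 0 h and 10 counts over the 3 KO libraries, and stood at 30.1, 28.3 and 74.5 CPM in WT and 92.4, 92.7 and 179 CPM in KO at 24 h. The KO libraries lay above those of WT at 24 h, although the genotype difference at that time was not called (adjusted p = 0.11), and the interaction was not called (adjusted p = 0.83). IFNG had 1 count in WT and 2 in KO at 0 h and stood at 0.354, 1.09 and 4.19 CPM in WT and 7.46, 11.7 and 17 CPM in KO at 24 h. At 24 h it was called higher in KO (adjusted p = 0.0073), and its interaction was not called (adjusted p = 0.93). Fitted fold changes against so few counts are no bound and are not given. The SE of the interaction was 4.94 for IL2 and 5.45 for IFNG on the log2 scale. Their missing calls therefore do not show that the genotypes responded alike. The called cytokine was LIF, with no count in KO at 0 h and group means of at most 1.7 CPM. Of 13 chemokine genes none was called by edgeR, 4 reached an unadjusted p under 0.05, and DESeq2 called 1 higher and 1 lower. Their median interaction was 0.724, against 0.00264 over all genes. In WT 7 of them rose and none fell, and in KO 11 rose and 1 fell. Between genotypes at 24 h 5 were called higher in KO and 1 lower, with the same numbers at 36 h.

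In the SLAM family list 5 of 14 tested members had a higher interaction and none a lower one. At 0 h 2 were higher and 3 lower in KO, and at 24 h 2 were higher and 2 lower. SLAMF7, a SLAM family receptor of activated lymphocytes (chromosome 1, 160739057 to 160754821, plus strand), stood at 0.971, 0.939 and 0.66 CPM in WT at 0 h, 1.3, 1.4 and 4.13 CPM in WT at 24 h, 2.25, 2.82 and 2.18 CPM in KO at 0 h, and 42.6, 48.5 and 77.3 CPM in KO at 24 h. At 24 h the lowest KO library was far above the highest WT library, and KO was also higher at rest. The interaction was 3.14 ± 0.53 (SE, adjusted p = 0.00054). SLAMF8 reached 5.78 ± 1.74 CPM in KO at 24 h from 0.322 ± 0.179 CPM, while in WT it was not called to change. The other called members were SLAMF6, PTPN6, which encodes SHP-1, and the receptor LY9. SLAMF8, PTPN6 and LY9 were called lower in KO at 0 h and were not called between genotypes at 24 h. SH2D1A, which encodes SAP, was not called. Leaving out 1 library gave 3 to 5 called members, with 3 without WT replicate 10 or KO replicate 12 of 24 h.

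TNFSF8, the ligand of CD30 (chromosome 9, 114893343 to 114930595, minus strand), stood at 2.41, 2.01 and 2.42 CPM in WT at 0 h, 19.9, 22.8 and 24.8 CPM in WT at 24 h, 1.96, 1.76 and 2.03 CPM in KO at 0 h, and 80.2, 82.7 and 108 CPM in KO at 24 h. At rest the genotypes overlapped, and at 24 h the KO libraries were all above 80 CPM and the WT libraries all below 25 CPM, with an interaction of 2.26 ± 0.25 (SE, adjusted p = 1e-07). CD40LG stood at 22.7 ± 1.99 CPM in WT and 0.235 ± 0.113 CPM in KO at rest and at 47.1 ± 7.88 and 2.49 ± 2.06 CPM at 24 h. KO stayed below WT at both times, and its higher interaction, 2.51, was called in only 5 of the 19 other analyses. Among activation receptors, IL2RB, CD82, ICAM1, IL2RA and CD69 had higher interactions and CD83 and CD28 lower ones. IL2RB, the signalling chain of the IL-2 receptor, went from 5.65 ± 0.726 to 4.32 ± 0.885 CPM in WT and from 3.92 ± 0.521 to 11 ± 1.28 CPM in KO. CD28, the costimulatory receptor, rose from 173 to 425 CPM in WT and from 175 to 246 CPM in KO. None of 15 inhibitory receptors and exhaustion-associated genes was called by edgeR or DESeq2, and 2 reached an unadjusted p under 0.05. The 5 higher calls among activation receptors became 3 without KO replicate 12 of 24 h, and leaving out any one of 9 of the 12 libraries (all but WT replicate 12 and KO replicates 10 and 11 of 24 h) left 1 of the 2 lower calls. CD83 kept its call in all of the 19 other analyses, so the call that was lost was that of CD28.

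Outside these lists, ADAM19 and POU2F2 rose in both genotypes from levels that overlapped at rest, and MGLL rose in KO alone by these calls. ADAM19, a membrane protease (chromosome 5, 157395534 to 157575775, minus strand), stood at 4.86, 4.16 and 4.18 CPM in WT at 0 h, 41.7, 48 and 54.7 CPM in WT at 24 h, 2.89, 5.11 and 4.17 CPM in KO at 0 h, and 253, 243 and 336 CPM in KO at 24 h, with an interaction of 2.75 ± 0.25 (SE, adjusted p = 3.5e-09). MGLL, which splits monoacylglycerols (chromosome 3, 127689062 to 128052190, minus strand), stood at 5.52, 1.61 and 3.81 CPM in WT at 0 h, 3.42, 2.34 and 4.89 CPM in WT at 24 h, 1.87, 3.17 and 1.16 CPM in KO at 0 h, and 38.2, 29.3 and 61.8 CPM in KO at 24 h. WT libraries stayed between 1.61 and 5.52 CPM at both times. At rest MGLL was called lower in KO, although the libraries overlapped (adjusted p = 0.048), and the interaction was 4.78 ± 0.46 (SE, adjusted p = 1.3e-07). POU2F2, the lymphoid factor OCT2, stood at 2.25, 2.82 and 2.53 CPM in WT at 0 h, 9.49, 12.2 and 13.9 CPM in WT at 24 h, 1.87, 3.52 and 2.4 CPM in KO at 0 h, and 48.5, 48.5 and 72 CPM in KO at 24 h, with an interaction of 2.32 ± 0.26 (SE, adjusted p = 8.7e-08).

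ANXA1, a phospholipid-binding protein, fell in WT and was not called in KO. It stood at 197, 171 and 186 CPM in WT at 0 h, 73.4, 78.8 and 75.9 CPM in WT at 24 h, 194, 190.1 and 215 CPM in KO at 0 h, and 225, 241 and 198 CPM in KO at 24 h, and the interaction was 1.43 ± 0.15 (SE, adjusted p = 2e-08). NRP1, a coreceptor of semaphorins and VEGF, crossed over from 3.97 ± 0.326 CPM in WT and 1.49 ± 0.391 CPM in KO at rest to 3.35 ± 0.422 and 11.4 ± 1.84 CPM at 24 h. IRF8, an interferon regulatory factor of myeloid and B cells, went from 4.69 ± 1.29 to 29.6 ± 11.6 CPM in KO and was not called to change in WT. PLEK and PLAU were also among the 15 largest, with interactions of 3.34 and 3.37, and the call of PLAU ended without replicate 1 of 0 h of either genotype. HCAR1 had only 12 counts over the 3 KO libraries at rest. Its interaction of 3.11 was 4.81 without KO replicate 1 of 0 h and 2.50 without KO replicate 3, and it was called in all of the 19 other analyses. GRIK4, F5, KIR3DX1, CCND1 and ADD2 complete the 15, but 4 of them had 1 to 10 counts over the 3 KO libraries at rest, CCND1 had 14, and all 5 lost their call in 2 or more other analyses.

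Of 23 tested G1 cyclins and CDK inhibitors 3 had a higher interaction, CDKN1A, CCND2 and CCND1, and CDK6 a lower one of -0.59 ± 0.15 (SE, adjusted p = 0.022), which lost its call in 9 of the 19 other analyses. The cyclin-dependent kinase inhibitor CDKN1A (p21) and the cyclin CCND2 rose in both genotypes and more in KO. CDKN1A went from 4.38 ± 1.67 to 7.66 ± 0.391 CPM in WT and from 3.41 ± 0.347 to 26.5 ± 6.19 CPM in KO, with an interaction of 2.04 ± 0.31 (SE, adjusted p = 6.1e-05). GZMA, a granule protease, stood at 56.1, 38 and 50.7 CPM in WT at 0 h, 263, 241 and 237 CPM in WT at 24 h, 12.2, 14.3 and 18 CPM in KO at 0 h, and 319.8, 361 and 195 CPM in KO at 24 h. KO was below WT at rest, and the groups overlapped at 24 h; the interaction was 1.95 ± 0.25 (SE, adjusted p = 1.4e-05). RAB27A and STX11, which act in granule release, made 3 called members of 16 in that list. RAB27A lost its call in 5 of the 19 other analyses and STX11 in 11. Leaving out 1 library gave 2 to 4 higher members of that list. Of 23 tested NF-kB subunits and targets 1 was higher and 1 lower. The NF-kB target TRAF1 had an interaction of 1.67 ± 0.34 (SE, adjusted p = 0.0047). BIRC3, an NF-kB target that inhibits apoptosis, was higher in KO at rest and had an interaction of -0.86 ± 0.19 (SE, adjusted p = 0.0054). BIRC3 was still called higher in KO at 24 h, with means of 126 CPM against 93.5 CPM in WT, although the libraries overlapped.

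Interferon-linked genes rose in both genotypes, and a subset rose more in KO. Of 42 tested interferon-stimulated genes, 36 rose in WT and 34 in KO, 7 had a higher interaction and 1 a lower one. GBP5, a guanylate-binding protein (chromosome 1, 89258950 to 89272804, minus strand), stood at 2.1, 2.28 and 1.25 CPM in WT at 0 h, 44.4, 55.7 and 75.2 CPM in WT at 24 h, 2.13, 2.64 and 2.07 CPM in KO at 0 h, and 304, 304 and 469.7 CPM in KO at 24 h, with an interaction of 2.32 ± 0.38 (SE, adjusted p = 0.00044). Its genotypes overlapped at rest and were separate at 24 h. GBP1 and PARP14 had interactions of 1.29 ± 0.20 (SE, adjusted p = 0.0001) and 1.05 ± 0.15 (SE, adjusted p = 1.8e-05). GBP2, IRF1 and PARP9 were also higher, and XAF1 was the lower one. ISG15, MX1, the OAS genes and IRF7, commonly used markers of type I interferon, were not called. The 7 higher calls became 15 without WT replicate 12 of 24 h and 5 without KO replicate 12 or without WT replicate 10. With 1 library left out 0 to 3 members were lower.

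Of 18 tested genes of MHC class I and peptide loading 6 had a higher interaction and none a lower one. At 0 h 7 members were already higher in KO and none lower, and at 24 h 14 were higher and none lower. HLA-E, a nonclassical class I molecule, stood at 82.4, 90.8 and 90.3 CPM in WT at 0 h, 537, 594 and 559 CPM in WT at 24 h, 91.2, 79.8 and 90.9 CPM in KO at 0 h, and 878, 858 and 1035 CPM in KO at 24 h, with an interaction of 0.72 ± 0.14 (SE, adjusted p = 0.0013). The others were the peptide transporter TAP1, the proteasome activator PSME2, the trimming peptidase ERAP2, HLA-F, and NLRC5, the activator of class I genes. HLA genes share sequence, so values for single HLA symbols are uncertain. The count was 3 without WT replicate 3 or KO replicate 2 of 0 h, or WT replicate 10 or KO replicate 12 of 24 h, and 1 in a fit of the 12 libraries alone. No MHC class II gene of 10 was called by edgeR or DESeq2, and none reached an unadjusted p under 0.05.

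The interferon-stimulated response element (ISRE: TTTC, 2 bases of any kind, TTTC, on either strand) was found in 3.07% of all promoters by the same search and in 18 of the 31 interferon-stimulated genes with an entry. Of the 4 genes with a higher interaction that have an entry, GBP1 and PARP14 hold it. Their sites, at chr1:89065318-89065343 (minus strand) and chr3:122680802-122680827 (plus strand), are shown for comparison with IFI44, at chr1:78649763-78649788 (plus strand), which holds the same element and was not called.
GBP1: cgaagtacTTTCAGTTTCatattact
PARP14: caggaaacGAAAGCGAAAgagtcaaa
IFI44: acactgagTTTCAGTTTCctttctct
Capitals mark the element, which PARP14 holds in the reverse orientation. Most of the 18 members that hold it, like IFI44, were not called.

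**Figure D5:**
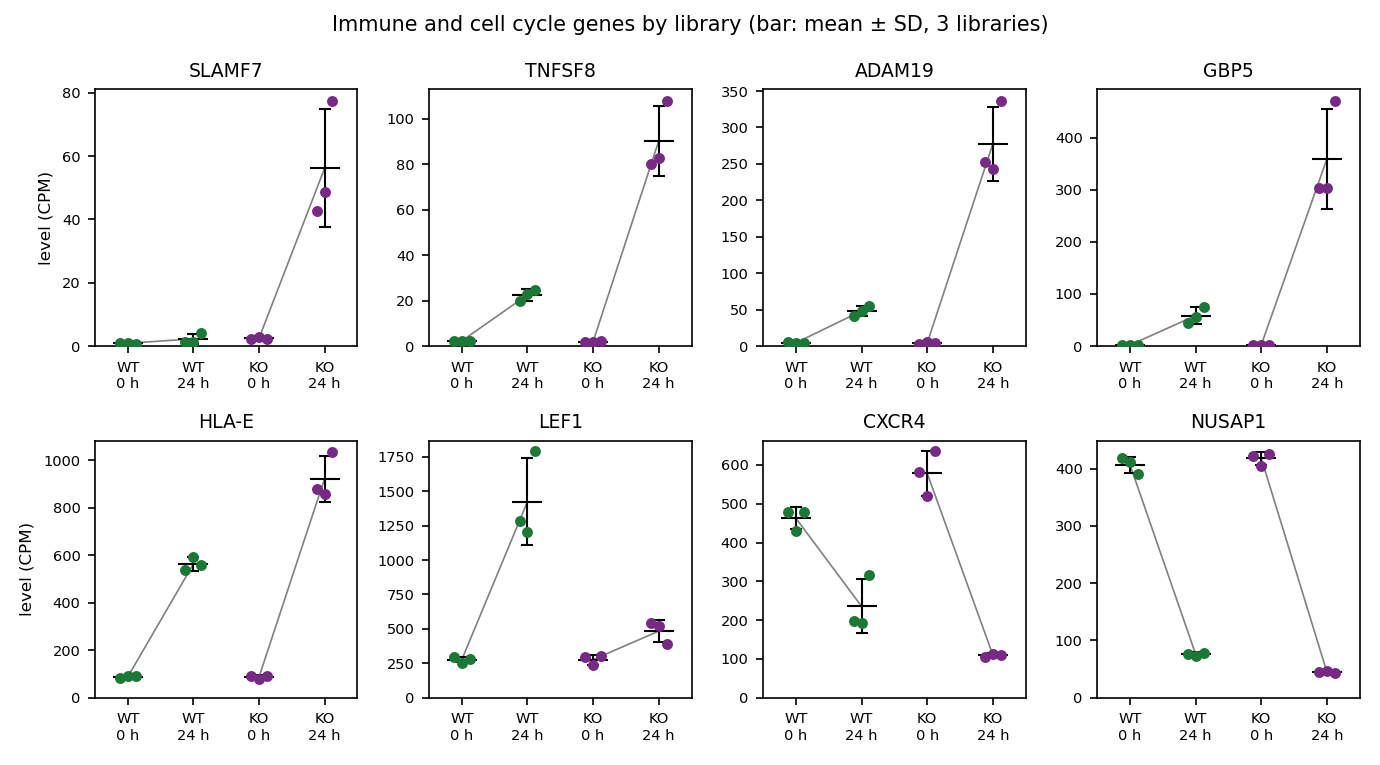
Levels of 8 immune and cell cycle genes in each library (points, CPM), with the mean and SD of 3 libraries as bars and a line joining 0 h and 24 h within a genotype; each axis starts at 0. SLAMF7, TNFSF8, ADAM19, GBP5 and HLA-E are separate between genotypes at 24 h, LEF1 climbs in WT to at least 1203 CPM and in KO to at most 539.7 CPM, and CXCR4 and NUSAP1 drop further in KO.

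Transcription factors of T cell identity included several with a lower interaction. Of 30 tested T helper and effector factors, 6 were lower and 1 was higher. LEF1, a WNT-responsive factor of early T cells (chromosome 4, 108047545 to 108168956, minus strand), stood at 296, 255 and 280.3 CPM in WT at 0 h, 1280.4, 1203 and 1788 CPM in WT at 24 h, 295, 235 and 300.2 CPM in KO at 0 h, and 539.7, 522 and 390.1 CPM in KO at 24 h. The genotypes overlapped at rest, and at 24 h every KO library was below every WT library. LEF1 rose in both, by 2.36 in WT and 0.80 in KO on the log2 scale, and the interaction was -1.56 ± 0.18 (SE, adjusted p = 1.2e-07). TCF7, its relative TCF-1 (chromosome 5, 134114711 to 134151865, plus strand), stood at 157, 153 and 159.6 CPM in WT at 0 h, 51, 50.1 and 41.1 CPM in WT at 24 h, 390.2, 319.9 and 368 CPM in KO at 0 h, and 44.3, 42.3 and 13.7 CPM in KO at 24 h. It was higher in KO at rest and fell in both genotypes to levels that overlapped at 24 h, where KO replicate 12 was the lowest. Its interaction was -1.71 ± 0.39 (SE, adjusted p = 0.016), and the call ended in the fit of the 12 libraries alone and without the shallowest library of each genotype at 0 h. RUNX1, RUNX3, IKZF1 and STAT4 were the other 4, and STAT4 lost its call in 9 of the 19 other analyses. STAT4 was called higher in KO at rest and also at 24 h, with means of 24.4 CPM against 13.8 CPM in WT. The number of lower calls in this list was 2 without replicate 3 of 0 h of either genotype, WT replicate 2 or KO replicate 1 of 0 h, or KO replicate 12 of 24 h, 3 without WT replicate 1 of 0 h or WT replicate 10 of 24 h, and 4 or 5 without any other. LEF1 kept its call in all of the 19 other analyses.

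Receptors of migration and of the T cell receptor complex gave fewer calls. CXCR4, the receptor of CXCL12 (chromosome 2, 136114349 to 136118165, minus strand), stood at 479, 431 and 478 CPM in WT at 0 h, 198, 193 and 315 CPM in WT at 24 h, 580.5, 520.0 and 635 CPM in KO at 0 h, and 106, 114 and 111 CPM in KO at 24 h. It fell in both genotypes and further in KO, with an interaction of -1.42 ± 0.18 (SE, adjusted p = 1.4e-06). S1PR1, an exit receptor of lymphoid organs, was lower and the integrin subunits ITGA1 and ITGA2 were higher, of 28 tested members. S1PR1 lost its call in 10 of the 19 other analyses. In the T cell receptor list PAG1, a membrane adaptor that recruits CSK, was higher, with an interaction of 1.16 ± 0.19 (SE, adjusted p = 9.3e-05), and ZAP70, TRAT1 and CD7 were lower. CD7 lost its call in 12 of the 19 other analyses and ZAP70 in 3. ZAP70 rose from 381 ± 14.1 to 815 ± 38.1 CPM in WT and from 411 ± 29 to 597 ± 38.9 CPM in KO. TRBC2, a constant segment of the receptor's beta chain, was lower in KO at rest and overlapped with WT at 24 h, with an interaction of 0.80 ± 0.17 (SE, adjusted p = 0.003). CD3D, CD3E, CD247, LCK and LAT were not called. The lower calls of the T cell receptor list were 1 without WT replicate 1 of 0 h or KO replicate 12 of 24 h and 5 without WT replicate 12. For migration receptors 1 to 3 were higher and 1 to 4 lower with 1 library left out.

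Several of the lowest interactions came from genes that fell in KO and did not fall, or fell less, in WT. HHIP-AS1, a transcript annotated as antisense to HHIP (chromosome 4, 144642922 to 144661357, minus strand), stood at 47.3, 41.2 and 46.5 CPM in WT at 0 h, 43.1, 51.1 and 42 CPM in WT at 24 h, 43.3, 50.6 and 45.8 CPM in KO at 0 h, and 18, 15.4 and 9.58 CPM in KO at 24 h. WT was not called to change and KO fell, and the interaction was -1.70 ± 0.21 (SE, adjusted p = 1.1e-06). Whether the counting used strand is not given in the sources used here, so reads of HHIP and its antisense partner cannot be told apart. SHISA2 stood at 67.2, 75.5 and 66 CPM in WT at 0 h, 149, 149 and 148 CPM in WT at 24 h, 60.7, 78.6 and 68.2 CPM in KO at 0 h, and 53.4, 56.4 and 17.1 CPM in KO at 24 h. It rose in WT and fell in KO, with an interaction of -1.80 ± 0.33 (SE, adjusted p = 0.0021), and its KO replicate 12 was far below the other 2. SSBP2 fell in both genotypes, from 302 ± 18.7 to 191 ± 13.1 CPM in WT and from 258 ± 15.4 to 63.1 ± 5.16 CPM in KO, with an interaction of -1.37 ± 0.15 (SE, adjusted p = 3.3e-08). TSPAN7, a tetraspanin on chromosome X (38561370 to 38688920, plus strand), was lower in KO at both times and stood at 743, 708 and 769 CPM in WT at 0 h, 564, 544 and 460.2 CPM in WT at 24 h, 508, 463 and 535 CPM in KO at 0 h, and 161, 156 and 107 CPM in KO at 24 h, with an interaction of -1.33 ± 0.15 (SE, adjusted p = 8.9e-08). TUBB3, ADAMTS1 and GPA33 fell in KO and were not called in WT, with interactions of -2.27, -1.97 and -1.87. SYTL3 rose in both genotypes and less in KO, by 3.76 in WT and 1.64 in KO on the log2 scale, with an interaction of -2.12.

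Cell cycle genes fell in both genotypes and some fell further in KO. All 31 tested genes of S phase and DNA replication fell in WT and in KO. Of the 30 mitosis genes, 29 fell in WT and 30 in KO. A lower interaction was called for 7 of the mitosis genes and 5 of the S phase genes, and a higher one for none. At 24 h 20 of the 30 mitosis genes were lower in KO. NUSAP1, which binds spindle microtubules, stood at 418, 411 and 391 CPM in WT at 0 h, 76.6, 72.2 and 78.7 CPM in WT at 24 h, 423, 405 and 426 CPM in KO at 0 h, and 45.5, 45.9 and 43.1 CPM in KO at 24 h. WT and KO overlapped at rest and were separate at 24 h, with an interaction of -0.80 ± 0.16 (SE, adjusted p = 0.0018). RRM2, a subunit of ribonucleotide reductase, went from 901 ± 16.9 to 116 ± 4.38 CPM in WT and from 838 ± 18.8 to 60.5 ± 4.53 CPM in KO, with an interaction of -0.84 ± 0.15 (SE, adjusted p = 0.00043). CDC25C and KIF20A had interactions of -1.26 ± 0.27 (SE, adjusted p = 0.0032) and -1.11 ± 0.27 (SE, adjusted p = 0.016). The mitosis count was 3 without WT replicate 1 or 3 of 0 h or KO replicate 10 of 24 h, 4 without KO replicate 1 or 3 of 0 h or replicate 11 of 24 h in either genotype, and 5 to 8 otherwise. The S phase count was 2 without WT replicate 2 or KO replicate 1 or 3 of 0 h or KO replicate 11 of 24 h. It was 3 without WT replicate 1 of 0 h, WT replicate 10 or 11 or KO replicate 10 of 24 h, and 4 to 6 without any other. CCNB1, PLK1, MKI67, TOP2A and PCNA were not called.

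The promoter element CHR (TTTGAA or its reverse complement) was in 14 of 25 mitosis genes with an entry, against 13.6% of all promoters, and the E2F motif TTTCCCGC in 8 of 27 S phase genes, against 1.42%. Of the mitosis genes that hold CHR only CDK1 was called, and of the S phase genes that hold the E2F motif only MCM7 and UHRF1. CDK1, MCM7 and UHRF1 lost their calls in 6, 7 and 10 of the 19 other analyses. The sites of CDK1 at chr10:60778162-60778183 (plus strand) and MCM7 at chr7:100101569-100101592 (minus strand) are shown, with the motif in capitals.
CDK1: ataataaaTTTGAActgtgcca
MCM7: ctcggaccGCGGGAAAcccggcgc
MCM7 holds the E2F motif in the reverse orientation. Both motifs are also in promoters of members that were not called, such as PLK1 for CHR and PCNA for E2F.

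Replication-dependent histone genes were picked out after their values were seen, because 4 of the 15 lowest interactions belong to them. Of 45 tested symbols of the histone clusters, 10 had a lower interaction and none a higher one, against 1.78% and 1.9% of all genes. Of the 45 values 38 were negative, with a median of -0.867. HIST1H3J lost its call in 9 of the 19 other analyses and HIST1H2BF in 5. HIST1H3B stood at 7.58, 8.72 and 8.1 CPM in WT at 0 h, 2.71, 2.49 and 3.69 CPM in WT at 24 h, 18.2, 11.4 and 17.2 CPM in KO at 0 h, and 0.702, 1.99 and 0.543 CPM in KO at 24 h. Its interaction was -2.47 ± 0.52 (SE, adjusted p = 0.0043). HIST1H1B, a linker histone, had -1.65 ± 0.34 (SE, adjusted p = 0.0028). Histone copies are nearly identical, so the split of reads between single symbols is uncertain. By 36 h HIST1H3B, HIST1H2BF, HIST1H3J and HIST1H1B were not called between genotypes, with adjusted p from 0.59 to 0.99.

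Genes that moved in opposite directions in the 2 genotypes numbered 29 (fell in WT, rose in KO) and 16 (rose in WT, fell in KO), of which 24 and 14 reached 10 CPM. The first set included HSPA5, HSP90B1, MSMO1, DDIT3, DHCR7 and MVD, given above. In the second, CAT, which encodes catalase, stood at 81.1, 77 and 84.9 CPM in WT at 0 h, 113, 114 and 147 CPM in WT at 24 h, 116, 113 and 124 CPM in KO at 0 h, and 86.9, 91.5 and 88.9 CPM in KO at 24 h. Catalase was higher in KO at rest and lower at 24 h, without overlap at either time, and its interaction was -1.02 ± 0.16 (SE, adjusted p = 7.4e-05). TSPAN14 stood at 74.7, 72 and 75.3 CPM in WT at 0 h, 113, 107 and 84.1 CPM in WT at 24 h, 139.8, 131 and 129 CPM in KO at 0 h, and 89.9, 82.1 and 67.8 CPM in KO at 24 h, with an interaction of -1.19 ± 0.19 (SE, adjusted p = 7.5e-05). DENND5A, ZSCAN2, PRCP and ABCA7 had interactions of -1.15, -1.001, -0.91 and -1.21. PRCP, a lysosomal peptidase, and TSPAN14 differed at rest and were not called at 24 h.

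A related set crossed over between genotypes, called higher in KO at rest and lower at 24 h. ING4, a chromatin reader, went from 49.2 ± 0.907 to 146 ± 9 CPM in WT and from 64.9 ± 2.09 to 87.8 ± 6.93 CPM in KO, with an interaction of -1.13 ± 0.15 (SE, adjusted p = 4.2e-06). KLHL24, a ubiquitin ligase adaptor, rose in both and less in KO, with -1.41 ± 0.19 (SE, adjusted p = 5.3e-06). ZNF217 rose in WT and was not called in KO, with -1.28 ± 0.18 (SE, adjusted p = 9.6e-06). VAT1 fell in both and further in KO, with -0.98 ± 0.14 (SE, adjusted p = 1.7e-05). Genes called in the same direction at both times were few. HDC, which makes histamine, was lower in KO at both times and stood at 3.96 ± 0.625 and 526 ± 8.95 CPM in WT and 0.894 ± 0.364 and 299 ± 8.92 CPM in KO, with an interaction of 1.49 ± 0.22 (SE, adjusted p = 2e-05).

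Apoptosis genes were called in both directions. BID, which links death receptors to mitochondria, fell in both genotypes and further in KO, with an interaction of -1.05 ± 0.21 (SE, adjusted p = 0.0027). The death receptor gene TNFRSF10B was higher, with 0.69 ± 0.17 (SE, adjusted p = 0.018). BIK and CASP8 were the other lower members of this list of 22. CASP8 lost its call in 10 of the 19 other analyses and BIK in 6. MCL1, which holds off apoptosis, was the other higher one, with 0.46. With 1 library left out, 0 to 2 members were higher and 1 to 4 lower. No member was called by edgeR among 47 ribosomal protein genes, of which 3 reached an unadjusted p under 0.05 and DESeq2 called none, or among 22 genes of SOCS and cytokine feedback, with 6 and 2.

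Libraries of 36 h were not among those compared in the interaction, although they shared its fit and its estimate of the spread. They gave the later genotype difference in other samples, whose titles bear the letter C in both genotypes. In KO against WT at 36 h, 1501 genes were higher (6.96%) and 1405 lower (6.52%). Of the 410 genes with a higher interaction at 24 h, 219 were higher in KO at 36 h and 9 were lower. Of the 384 with a lower interaction, 193 were lower and 5 were higher. ADAM19 stood at 43.8 ± 5.94 CPM in WT and 353 ± 11.3 CPM in KO at 36 h, LEF1 at 1075 ± 58.1 and 302 ± 10.8 CPM, SLAMF7 at 1.38 ± 0.5 and 43.6 ± 2.45 CPM, and HSPA5 at 633 ± 88.9 and 998 ± 97.2 CPM. In contrast DHCR7, MVD, IDI1 and RRM2 were no longer called between genotypes at 36 h. No test was made of whether the difference itself changed between 24 h and 36 h.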

How the data were processed

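The deposited values were expected counts per gene symbol, mostly whole numbers: the authors' files hold 54300 symbols, and 0.177% of values, in 195 symbols, are not whole. Per the submitters' processing notes the builds were GRCh37 and hg19, and cutadapt, STAR and DESeq2 are named as tools. How reads were counted, with which annotation and whether by strand, is not given in the sources used here.

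Counts were rounded, filtered (edgeR's filterByExpr, minimum count 10), scaled by TMM and fitted with edgeR 4.0.16 (R 4.3.3, quasi-likelihood, robust) in 1 model of all 30 libraries and 10 groups. Adjusted p-values are Benjamini-Hochberg over 21554 genes, called under 0.05. Median log2 interaction over all genes was 0.00264. The test was also run on simulated counts, drawn independently for each library and equal between groups except for chosen genes in KO at 24 h. That run does not cover genotype differences at rest or a replicate that stands apart, and its outcome is not given here. DESeq2 1.42.0, other scaling, filters and left-out libraries were alternatives, and the fit without the robust estimate and the comparison at 36 h were added after seeing the data. The members and lists were chosen with earlier results of these data known.

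Genes named were SLAMF6, IL2, IFNG and CD69, the 15 largest called interactions in each direction at 10 CPM or more, up to 4 called members of each list by p at 5 CPM or more, the 6 opposite movers in each direction, and 4 for each class of genotype calls, with other list members given by count or value. Other names were chosen after their values were seen. Gene positions are from GENCODE 29 and promoters from RefSeq, both on GRCh38, and were matched by symbol. No coordinate was converted. A few called genes are not reported here.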

Additional observations from a re-analysis of the deposited data

Results flagged for a closer look

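The whole comparison is a test of whether 2 genotypes differ in 1 response, and 794 genes passed it. Among them, genes that moved in opposite directions in the 2 genotypes are set out here because each genotype's change was itself called. With a fall in WT and a rise in KO, the log2 interaction was 2.20 for HSPA5, 2.04 for MSMO1, 1.81 for DDIT3, 1.62 for DHCR7, 1.31 for HSP90B1 and 1.29 for MVD. With a rise in WT and a fall in KO it was -1.21 for ABCA7, -1.19 for TSPAN14, -1.15 for DENND5A, -1.02 for CAT, -1.001 for ZSCAN2 and -0.91 for PRCP.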

How the results depend on the processing

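The interaction gave 794 calls, against 1222 with DESeq2, 508 in a fit of the 12 libraries alone and 472 without the shallowest 0 h library of each genotype. With 1 library left out it gave 478 to 1180. For the 410 higher calls these values were 650 with DESeq2, 269 without the shallowest libraries and 279 to 682 with 1 left out, and for the 384 lower calls 228 in the 12 libraries, 203 without the shallowest and 181 to 498 with 1 left out. The 1309 calls of KO against WT at 0 h became 678 without the shallowest libraries and 674 to 1538 with 1 left out. For KO against WT at 24 h the range with 1 left out was 1432 to 2086. The cause of these shifts was not tested. Of the 135 named genes, 133 were called, 83 kept their call in all 19 alternatives and none reversed.

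A block for the replicate number (12 libraries) gave 1471 calls, 720 higher and 751 lower, and 2022 for KO against WT at 0 h. Without the block the same 12 libraries gave 508 calls, and 917 for KO against WT at 0 h. Same-numbered libraries correlated in their deviations at 0.00257 to 0.126, over 0.1 in 1 of 6 pairs, that of replicate 12. By a rule set before the fits were compared, the numbers count as pairs only if all 6 are over 0.1. They are therefore not taken to pair the libraries, and no label says what they stand for. The change within a genotype was not run with the block, because numbers are nested in time.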
